A study of Homo sapiens with 30 samples.

Results

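The 40 genes described here act in mitosis, and were followed in human airway cells dosed with whole birch pollen or with air. The members were a list of 40 named genes, a probe was taken if its gene name in the array files was one of them, and no threshold on a measured value was used. All 40 were found, on 51 of the 58201 probes that were not controls, and all 51 passed the filter that left 32100 probes for testing. The cells were BEAS-2B, an immortalized line grown from human bronchial epithelium, kept on porous inserts with medium below and air above, the air-liquid interface. Every insert went through the exposure chamber. For the pollen groups 10 mg of whole birch pollen was blown into the chamber with pressured air, and only a part of it settled on the inserts. Those of the air groups were mock exposed in the same way with pollen kept off the cells, although their labels carry the same 10 mg. Cells were collected 10 min, 55 min, 2 h 25 min, 6 h 50 min and 24 h after dosing, and each of the 10 groups of exposure and time had 3 arrays, 30 in all. The model was 1 line with no immune or other cells beside it. The study's methods state that exposures were repeated independently on different days, while the labels tie no array to a day. The p-values here therefore measure the spread between arrays of a group, in 1 estimate pooled over the 10 groups of 3 arrays.

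To divide, a cell builds up cyclins that switch on the kinase CDK1, condenses its chromosomes, attaches them by their kinetochores to a spindle of microtubules, and waits at the spindle checkpoint until all are attached. The anaphase-promoting complex then marks the cyclins and the inhibitor of sister separation for destruction, motor proteins pull the spindle apart and the cell is cleaved. Most of these proteins are made anew in each cycle, because their genes are transcribed from late S phase to mitosis and are held down in cells that have left the cycle. In a bulk sample their signal therefore follows the share of cells about to divide, and fewer such cells and less RNA per cell cannot be told apart.

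The members had promoter letters in common that the choice of members did not use. Promoters of 35 of the 40 were matched by symbol in RefSeq (build GRCh38.p14), as the 250 bases before and 50 bases after each gene's start, and both strands were searched. AURKA, BIRC5, TPX2, TTK and UBE2C were not matched. The letters TTTGAA, one form of the element named cell cycle genes homology region, stood in 25 of the 35 (71.4%) and in 15.2% of all 35116 promoters of the same length. The letters CCAAT, the CCAAT box, stood in 27 of the 35 (77.1%) and in 34.6% of all. Both together, with TTCGAA also counted as a form of the first, were in 21 of the 35 (60%) and in 6.38% of all. The letters TTCCCGC and TTGGCGC, forms of the E2F site, were found in 3 and 2 of the 35 (8.57% and 5.71%) and in 6.55% and 3.04% of all. The searched words do not lie within each other, but CCAAT read on the reverse strand can share bases with TTGGCGC and 1 base with TTTGAA, as it did in CDCA8 and MKI67. A match is a description of letters and not a site shown to be in use. The 150 bases just before the start of CDK1, of its activating cyclin CCNB1, of the mitotic kinase PLK1 and of CDC20, which activates the anaphase-promoting complex, are printed 5′ to 3′ on the gene's strand to show how these letters lie close together, with each match in capitals.

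CDK1, chr10:60778328-60778477, + strand: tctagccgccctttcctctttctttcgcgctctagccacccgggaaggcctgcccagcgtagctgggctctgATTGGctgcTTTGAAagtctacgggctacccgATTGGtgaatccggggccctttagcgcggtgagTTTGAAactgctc

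CCNB1, chr5:69167000-69167149, + strand: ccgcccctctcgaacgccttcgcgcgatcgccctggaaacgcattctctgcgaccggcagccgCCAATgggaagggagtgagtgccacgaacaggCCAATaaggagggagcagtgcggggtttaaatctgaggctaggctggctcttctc

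PLK1, chr16:23678739-23678888, + strand: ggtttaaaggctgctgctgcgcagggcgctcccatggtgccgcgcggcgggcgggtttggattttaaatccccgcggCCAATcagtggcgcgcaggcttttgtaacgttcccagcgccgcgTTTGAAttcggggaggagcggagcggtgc

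CDC20, chr1:43358831-43358980, + strand: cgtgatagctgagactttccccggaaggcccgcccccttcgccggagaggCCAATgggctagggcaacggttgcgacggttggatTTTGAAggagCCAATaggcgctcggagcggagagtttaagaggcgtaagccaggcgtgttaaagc

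In CDK1 the stretch held TTTGAA and the reverse of CCAAT, each at 2 places. CCNB1 held CCAAT at 2 places and no TTTGAA, PLK1 held each once, and CDC20 held CCAAT at 2 places around 1 TTTGAA.

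Levels are given as log2 of a probe's signal over the 75th percentile of its array, so that 0 is the 75th percentile and 1 unit is a doubling, and levels of different probes are not comparable with each other. The 75th percentiles ran from 578 to 2111 signal units over all arrays and from 578 to 1151 at 6 h 50 min. All 51 probes of the members were well above background on every array that carried them, and 50 were on both array designs. The epithelial markers KRT7, KRT8, KRT18, KRT19, KRT5, EPCAM and CDH1 were above background on all 30 arrays, as was the mesenchymal VIM. Of the other mesenchymal markers CDH2, COL1A1 and FN1 were so on 30 arrays, COL1A2 on 27 and COL3A1 on 0. Of the endothelial markers CDH5 was above background on 30 arrays, VWF on 28, KDR on 5 and PECAM1 on 0, at levels no higher than -3.30. Of the leukocyte markers PTPRC, CD14 and CD79A were so on 30, TYROBP on 29, LST1 on 26 and CD3E on 17, and CD14 reached the highest level, 0.28. Slide and time were tied in part. All arrays of 6 h 50 min lay on a slide of their own, so a difference between 6 h 50 min and another time and a difference between slides cannot be told apart, whereas pollen and air shared 1 slide at 10 min, 6 h 50 min and 24 h. Replicate 1 of pollen at 55 min lay alone on a slide of the other design. The quantity read first for each array was the median level of the 40 genes, and it hardly moved: group means ran from 2.01 ± 0.11 (SD, n = 3, pollen at 10 min) to 2.15 ± 0.02 (SD, n = 3, air at 6 h 50 min).

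None of the 40 genes passed the test for pollen against air at any of the 5 times. Here a gene passed if limma's moderated test, adjusted by Benjamini-Hochberg over the 32100 probes, gave an adjusted p under 0.05 and the change was at least 1.1-fold, and a gene stood by its brightest probe. The counts were 0 of 40 at 10 min (0% of all probes passed), 0 of 40 at 55 min (0.00312%), 0 of 40 at 2 h 25 min (0.0343%), 0 of 40 at 6 h 50 min (0.0436%) and 0 of 40 at 24 h (0.00312%). Averaged over the 5 times it was again 0 of 40 (0.00935%). At an unadjusted p under 0.05 the members numbered 0 at 10 min (1.83% of all probes), 0 at 55 min (5.08%), 1 at 2 h 25 min (2.98%), 5 at 6 h 50 min (7.44%), 0 at 24 h (3.61%) and 1 for the average (3.53%). The 11 further probes of these genes gave 0 calls as well. With so few probes of any gene passing, a count of 0 is what the background of this fit gives, and is no result about mitosis genes in particular. The study, with the same cut-offs, reports its largest response at 6 h 50 min. It counts far more genes there than the 12 probes higher and 2 lower of this fit, and the cause of that gap was not tested.

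The intervals bounded how large a change could have been. At 55 min the 95% interval of the pollen difference lay inside a 1.5-fold change, up or down, for all 40 genes. At 10 min and 24 h it did for 39, at 6 h 50 min for 38 and at 2 h 25 min for 37. For the average over the times it did for all 40. The median standard error of a member's difference was 0.11 on the log2 scale, against 0.19 over all tested probes, and changes smaller than the intervals were not detectable with 3 arrays a group.

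**Figure D1:**
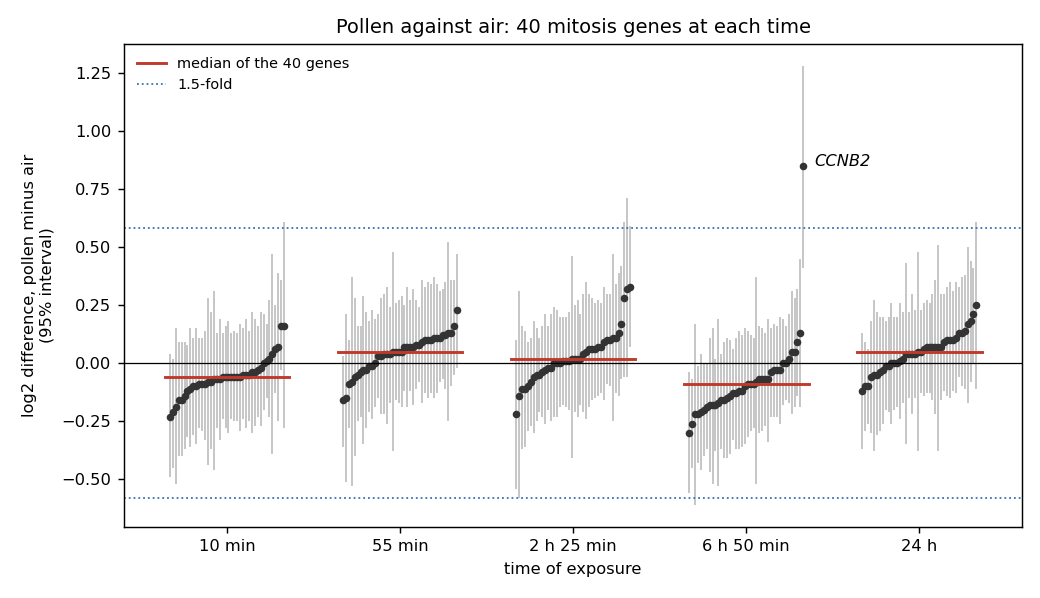
Log2 difference between pollen and air for each of the 40 mitosis genes at each time (points, sorted within a time), with its 95% interval from limma (grey lines), the median of the 40 (red) and the 1.5-fold lines (dotted). CCNB2 at 6 h 50 min, at 0.85, stands apart from the other 39, which lie between -0.30 and 0.13 at that time.

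CDK1, the kinase that drives entry into mitosis, passed for pollen against air at no time. Its brighter probe is printed 10 times on each array, and the spots of 1 array differed by an SD of 0.08 (median over arrays) where arrays of a group differed by 0.11. At 6 h 50 min its log2 levels were 2.99, 2.85 and 2.71 in air and 2.66, 2.77 and 2.82 in pollen, and the groups overlapped. The log2 difference was -0.10 ± 0.12 (SE, 95% interval -0.35 to 0.15, limma adjusted p = 0.976). At 24 h the levels were 2.58, 2.75 and 2.64 in air and 2.57, 2.76 and 2.68 in pollen, nearly the same range, with a difference of 0.01 ± 0.12 (interval -0.24 to 0.26). The study names CDK1 among cell junction genes that it found mostly up-regulated at 6 h 50 min. In the log2 values its authors deposited, the CDK1 difference at that time was -0.05 ± 0.10 (SE) for the brighter probe. The dimmer probe of CDK1 had mean levels of -5.06 ± 0.46 (SD) in air and -5.02 ± 0.26 in pollen at 6 h 50 min.

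CCNB1, the B-type cyclin that partners CDK1, had log2 levels of 3.64, 3.82 and 3.81 in air and 3.57, 3.74 and 3.69 in pollen at 6 h 50 min, a difference of -0.09 ± 0.11 (SE, interval -0.32 to 0.14). PLK1, a kinase of spindle and centrosome, differed by -0.08 ± 0.21 there, with the wider interval of -0.52 to 0.37. TOP2A, which untangles sister chromosomes, differed by -0.03 ± 0.11, and MKI67, the proliferation marker Ki-67 that coats mitotic chromosomes, by -0.18 ± 0.14. Over the 5 times the differences of these 5 genes ran from -0.21 (CCNB1, 10 min) to 0.16 (PLK1, 10 min), and their averages from -0.04 to 0.03. Read by their brightest probes, none had groups that did not overlap at any time. Both dimmer probes of MKI67 had every pollen array below every air array at 6 h 50 min, without passing. One read 0.05, 0.04 and 0.55 in air and -0.11, -0.03 and -0.06 in pollen. The other read -0.63, -0.63 and -0.24 in air and -0.66, -0.84 and -1 in pollen.

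**Figure D2:**
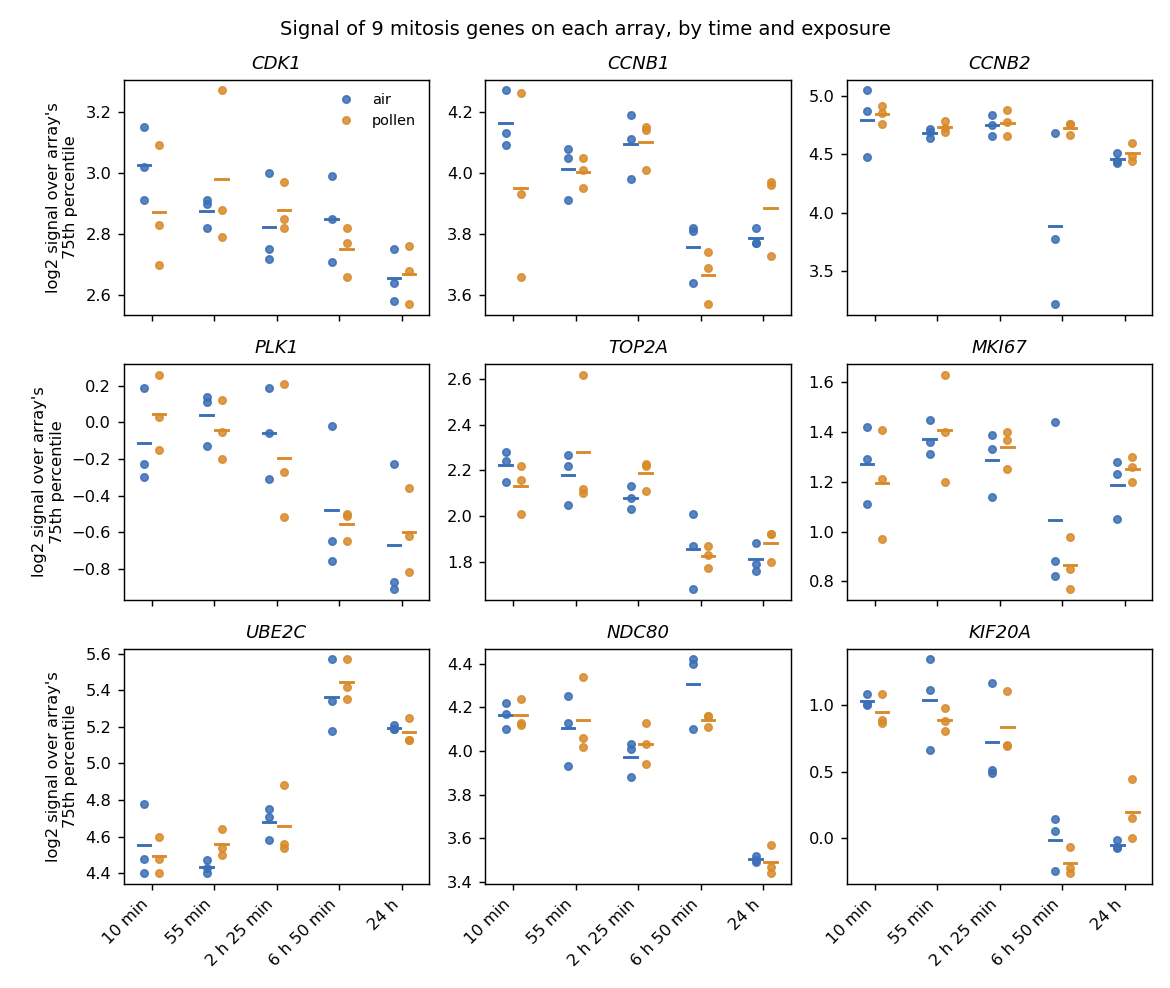
Log2 signal over the array's 75th percentile for 9 mitosis genes on each of the 30 arrays (points, blue for air and orange for pollen), with the mean of each group as a bar. Air and pollen lie together at each time except for CCNB2 at 6 h 50 min, where air replicates 1 and 2 are low, and UBE2C, NDC80 and KIF20A shift late in both exposures.

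The 1 member that stood out was CCNB2, another B-type cyclin, at 6 h 50 min, and it did not pass. Its log2 levels there were 3.21, 3.77 and 4.68 in air and 4.67, 4.76 and 4.76 in pollen. On the arrays of the other times it lay between 4.43 and 5.05. Air replicates 1 and 2 were thus low, and air replicate 3 stood with the pollen arrays. The difference was 0.85 ± 0.21 (SE, interval 0.41 to 1.28, limma adjusted p = 0.128). That SE rests on the spread pooled over all groups, while here the SD was 0.74 in air and 0.06 in pollen. The spot of CCNB2 (probe at chr15:59417139-59417198, build hg19, + strand) lay in row 183 and column 83. There, on air replicates 1 and 2 of 6 h 50 min, a field of spots was dim.

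The dim field was found from all probes above background on all arrays and on both designs, with the members among them. In windows of 12 by 12 spots, the median difference from the arrays of other times was under -0.3 on the log2 scale in 18 of 448 windows of air replicate 1 and in 14 of air replicate 2. Spots in these windows differed by a median of -0.83 and -0.61. Air replicate 3 and the 3 pollen arrays of that time had no such window, and elsewhere at most 6 windows of an array fell under the limit.

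With the dim windows left out, CCNB2 kept 1 air and 3 pollen arrays, and the difference was 0.05. The air array kept was replicate 3, so this difference follows from the levels already given and tests no cause. KIF4A, a kinesin that organises the central spindle, had a probe in the same dim field and is named here for that position. Its dimmer probe (chrX:69626140-69626199, hg19, row 176, column 88) lay beside that of CCNB2 and read -2.09, -1.19 and -0.55 in air against -0.42, -0.46 and -0.74 in pollen, a difference of 0.74 ± 0.24 (adjusted p = 0.284). Its brighter probe (chrX:69640147-69640206) lay elsewhere and read 1.48, 1.39 and 1.45 against 1.47, 1.34 and 1.30, a difference of -0.07 ± 0.10. With the dim windows left out the dimmer probe differed by 0.01, again with 1 air array. Whether the dim field lowered the reading of either gene was not tested. Of the 51 probes these were the 2 whose spot lay wholly in a dim window at 6 h 50 min. CDK1 and CCNA2 each had 1 of their 10 spots in such a window, and their differences were the same without it, at -0.10 and -0.03.

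CCNB2 also shows how a call can turn on the processing. After normexp background correction with quantile normalization its difference was 1.19 ± 0.28 and passed (limma adjusted p = 0.0413), and in the deposited value table it was 1.15 ± 0.28 and passed (adjusted p = 0.0418). With normexp, quantile normalization and the dim windows left out together, a setting chosen after the data were seen, it was -0.10.

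**Figure D3:**
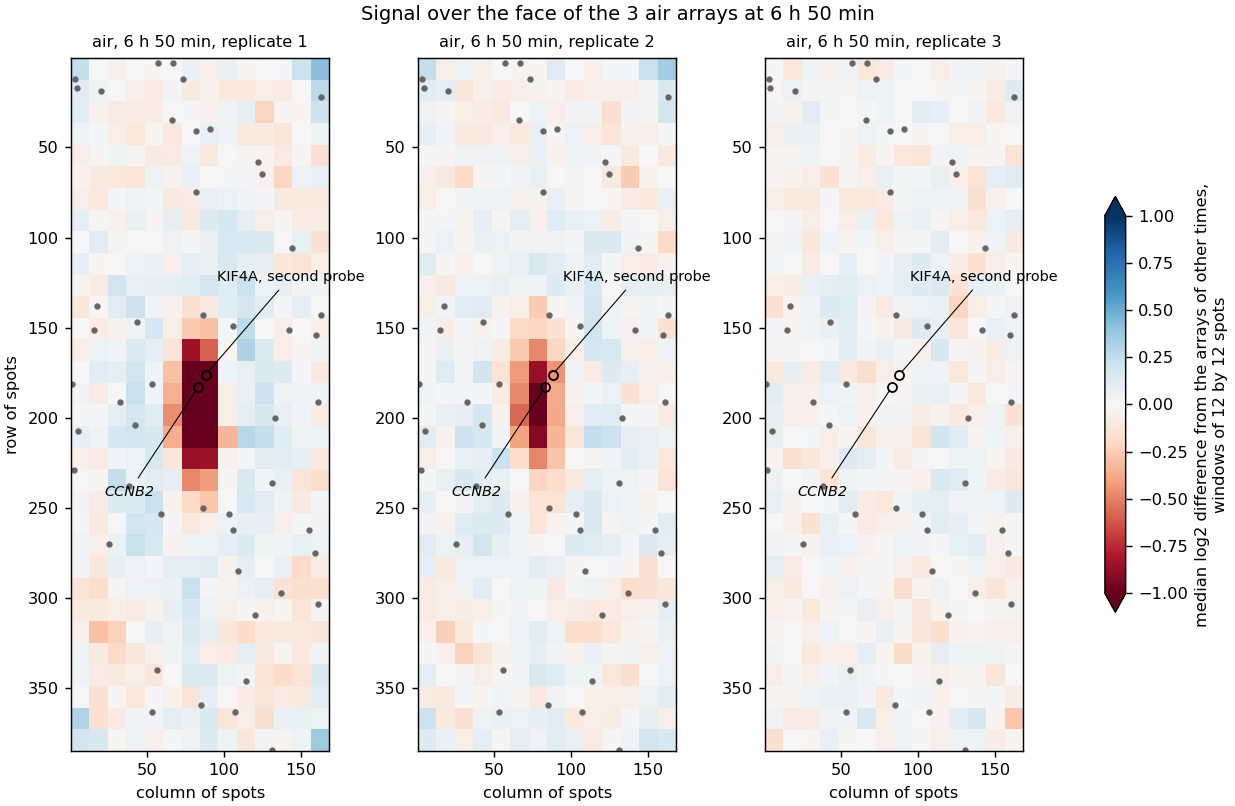
Median log2 difference of spots from the arrays of other times, in windows of 12 by 12 spots over the face of the 3 air arrays of 6 h 50 min (red for dimmer, on a scale that ends at -1 and 1), with 1 spot of each of the 51 member probes (dots). The rings mark CCNB2 and the dimmer KIF4A probe, which lie inside the dim field of replicates 1 and 2; replicate 3 has no such field.

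At 6 h 50 min the other members leaned the other way. Of the 40 genes 32 were lower in pollen, with a median log2 difference of -0.09, while 49.8% of all tested probes were lower and their median was 0. The median level of the 40 was 2.13 to 2.17 on the air arrays and 2.01 to 2.06 on the pollen arrays, so that the arrays did not overlap. A lean in the same direction stood at 10 min, where 32 of 40 were lower with a median of -0.06, 48.1% of all tested probes were lower and the arrays overlapped (1.95 to 2.11 in air, 1.89 to 2.12 in pollen). At 55 min, 2 h 25 min and 24 h the lean was the other way, with 29, 26 and 30 of 40 higher in pollen (48.5%, 41.6% and 49.1% of all tested probes) and medians of 0.05, 0.02 and 0.05. The 40 genes are read from the same 6 arrays, so their number is no count of independent observations.

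TPX2, which helps build the spindle and activates the kinase AURKA, had the smallest p after CCNB2. Its log2 levels at 6 h 50 min were 2.39, 2.43 and 2.55 in air and 2.09, 2.22 and 2.28 in pollen, with every pollen array below every air array. The difference was -0.26 ± 0.09 (SE, interval -0.45 to -0.07, limma adjusted p = 0.371). ECT2, which starts the contractile ring, read 0.60, 0.41 and 0.64 in air and 0.36, 0.16 and 0.24 in pollen, a difference of -0.30 ± 0.13 (adjusted p = 0.549). Neither passed. In all, 7 of the 40 genes, CENPA, CENPE, DLGAP5, ECT2, KIF11, NEK2 and TPX2, had all 3 pollen arrays below all 3 air arrays, against 5.21% of tested probes, and 0 had them all above, against 6.51%.

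ECT2 was also the member with the smallest p at 2 h 25 min, where it pointed up, with levels of 0.45, 0.46 and 0.23 in air and 0.96, 0.55 and 0.63 in pollen, a difference of 0.33 ± 0.13 (limma adjusted p = 1). The change of its pollen difference between the 2 times was -0.63 ± 0.18 (limma adjusted p = 0.747). No member passed for a change of the pollen difference between neighbouring times, 0 of 40 in each of the 4 tests, where 0%, 0%, 0.00312% and 0% of all probes did. At an unadjusted p under 0.05 the members numbered 1 (3.77% of all probes), 0 (1.38%), 4 (5.6%) and 3 (5.16%), in order of time. At 24 h CENPE, a motor at the kinetochore, had the smallest p, with levels of 1.04, 0.92 and 0.90 in air and 1.17, 1.07 and 1.25 in pollen, a difference of 0.21 ± 0.10 (limma adjusted p = 1).

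The remaining genes with the smallest p at each time had differences of 0.33 or less in size, and none passed. At 10 min MAD2L1, a checkpoint protein, differed by -0.23 ± 0.13 (SE) and KIF4A by 0.16 ± 0.10. At 55 min CENPA differed by 0.23 ± 0.12 and KIF4A by -0.16 ± 0.10, so KIF4A pointed both ways. At 2 h 25 min ANLN, which scaffolds the contractile ring, differed by 0.32 ± 0.19, and NEK2, a kinase that splits the centrosomes, by 0.28 ± 0.16. At 24 h KIF20A differed by 0.25 ± 0.17 and the spindle kinase AURKA by 0.13 ± 0.09. Averaged over the times CCNB2 differed by 0.20 ± 0.09, the arrays with the dim field included.

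The wider cell cycle gave the same count. Beside the members stood 119 genes in 5 lists: 19 transcription regulators of mitosis genes, 15 regulators of CDK activity, 40 other genes of mitosis, 15 of the anaphase-promoting complex with its activators and inhibitors, and 30 of DNA replication and the G1 to S step. All 119 were tested, and 0 passed for pollen against air at any time or for the average. At 6 h 50 min the medians of these lists lay between -0.05 and 0 on the log2 scale, and all 7 epithelial markers were higher in pollen, by a median of 0.15, with 0 of 7 passing. Of the other markers, 4 of 5 mesenchymal, 3 of 6 leukocyte and 0 of 2 endothelial were higher, and 0 passed. Of all tested probes 50.2% were higher.

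Some mitosis genes passed the test between the late times in both exposures, at shares near or below those of all probes except among the genes that fell from 2 h 25 min to 24 h and from 6 h 50 min to 24 h in air and from 2 h 25 min to 6 h 50 min in pollen, and these counts moved with the processing. From 10 min to 55 min 0 of 40 passed in air (0.187% of all probes) and 0 in pollen (0.841%), and from 55 min to 2 h 25 min again 0 in air (0.0156%) and 0 in pollen (0.202%). At an unadjusted p under 0.05 the members were 2 in air (10.8% of all probes) and 4 in pollen (15%) for the first step, and 1 in air (4.3%) and 1 in pollen (8.42%) for the second. The members with the smallest p in the first step were TTK, a checkpoint kinase, in air (-0.23 on the log2 scale, limma adjusted p = 0.397) and ASPM, a protein of the spindle pole, in pollen (0.27, adjusted p = 0.164). In the second step they were UBE2C in air (0.25, adjusted p = 0.999) and PRC1, which bundles the central spindle, in pollen (-0.18, adjusted p = 0.551).

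The comparison of 24 h with 2 h 25 min, chosen after the slides were seen, leaves out the slide of 6 h 50 min. In air 14 of 40 genes passed (27.4% of all probes), of which 13 fell (14.9%) and 1 rose (12.5%). In pollen 7 passed (23%), of which 6 fell (11.8%) and 1 rose (11.2%). The members called higher were thus below the share of all probes in both, those called lower above it in air and near it in pollen. The median log2 difference of the members was -0.13 in air and -0.16 in pollen, beside -0.07 and -0.02 over all tested probes. All 7 genes that passed in pollen, 50% of the 14 in air, passed in air in the same direction, where over all probes 78.8% of the calls in pollen and 66.3% of those in air were shared. The 2 comparisons share no arrays, though they share slides, and over the 40 genes their differences had a Pearson r of 0.90, against 0.83 over all tested probes, given as a description across genes. The difference between air and pollen over this interval was not tested.

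**Figure D4:**
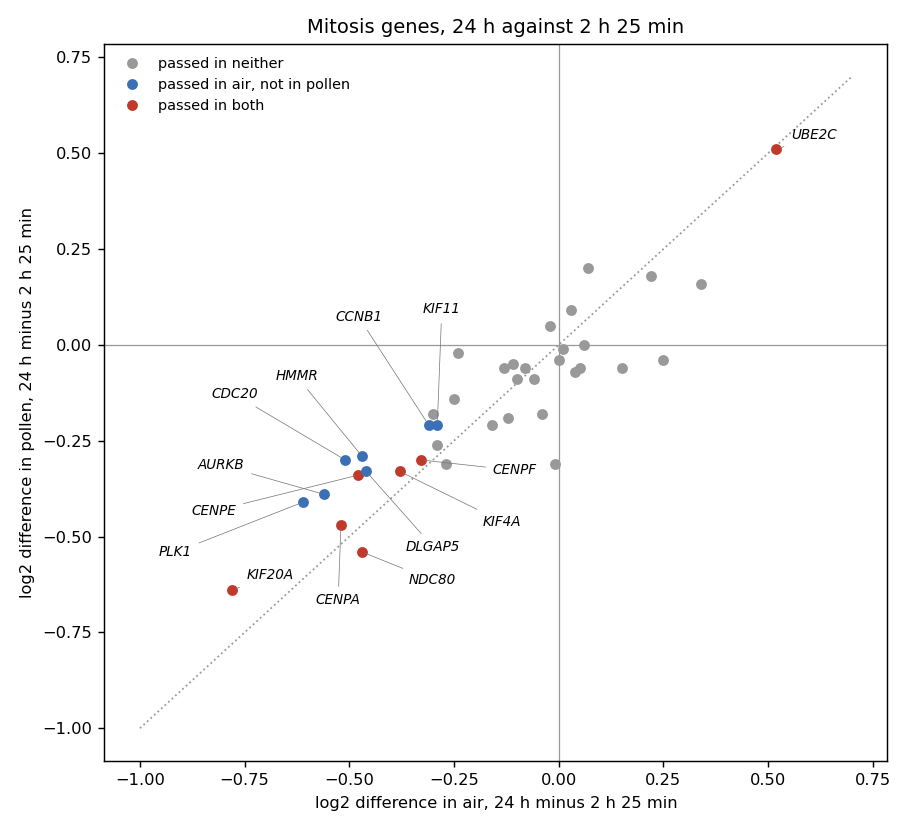
Log2 difference between 24 h and 2 h 25 min for each of the 40 mitosis genes in air (x axis) and in pollen (y axis). The dotted line marks equal change, and colours show where a gene passed limma's test. CENPA, CENPE, CENPF, NDC80, KIF4A and KIF20A fell and UBE2C rose in both.

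Genes of the kinetochore, the structure that ties chromosomes to the spindle, were 4 of the 6 that passed as lower in both exposures, and the list held 6 genes in all. NDC80, which grips the microtubule end, read 3.88, 4.03 and 4.01 in air and 4.13, 4.03 and 3.94 in pollen at 2 h 25 min, and 3.50, 3.49 and 3.52 in air and 3.47, 3.44 and 3.57 in pollen at 24 h, so that every late array lay below every earlier one. It fell by 0.47 in air (limma adjusted p = 0.000957) and by 0.54 in pollen (adjusted p = 0.000391). CENPA, the histone that marks the centromere, fell by 0.52 (adjusted p = 0.00191) and 0.47 (adjusted p = 0.00538). CENPE fell by 0.48 in air and 0.34 in pollen, and CENPF, a protein of the outer kinetochore, by 0.33 and 0.30. The other 2 of the list, NUF2 and SPC25, did not pass.

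Of the 5 kinesins, 3 passed as lower in air and 2 in pollen. KIF20A, needed for cleavage of the cell, had the largest fall of the 40 in both exposures: its log2 levels went from 0.49, 1.17 and 0.51 to -0.08, -0.02 and -0.07 in air and from 0.70, 1.11 and 0.69 to 0.15, 0.00 and 0.44 in pollen, a difference of -0.78 ± 0.17 (limma adjusted p = 0.00172) and -0.64 ± 0.17 (adjusted p = 0.0101). No late array reached the levels of the earlier ones. KIF4A fell by 0.38 and 0.33, and KIF11, which pushes the spindle poles apart, fell by 0.29 in air. Of the 8 kinases and cyclins, AURKB, the kinase of the chromosomal passenger complex, fell by 0.56, PLK1 by 0.61 and CCNB1 by 0.31 in air, with the arrays of PLK1 overlapping, and in pollen they read -0.39, -0.41 and -0.21 and did not pass. CDC20, DLGAP5 and HMMR fell in air by 0.51, 0.46 and 0.47.

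UBE2C, the ubiquitin-conjugating enzyme that works with the anaphase-promoting complex, was the 1 member that passed as higher, where 12 of 40 were higher in air and 7 in pollen. In air it read 4.71, 4.75 and 4.58 at 2 h 25 min and 5.19, 5.21 and 5.19 at 24 h, and in pollen 4.88, 4.56 and 4.54 and then 5.25, 5.13 and 5.13. It rose by 0.52 ± 0.11 in air (limma adjusted p = 0.00111) and 0.51 ± 0.11 in pollen (adjusted p = 0.00174). Of the 8 genes of its list, checkpoint and protein degradation, 5 were higher and 3 lower in air, and 4 and 4 in pollen.

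The slide that held all 24 h arrays also held replicate 3 of 2 h 25 min, so part of the comparison can be made within it, with 3 arrays against 1, the lone array being assumed to vary like the other groups. There UBE2C differed by 0.61 in air (limma adjusted p = 0.0158) and 0.63 in pollen (adjusted p = 0.0194), and NDC80 by -0.51 (adjusted p = 0.0114) and -0.45 (adjusted p = 0.0331). With CENPA and HMMR, at -0.47 and -0.53 in air, 4 members passed in air (13.3% of all probes) and 2 in pollen (9.3%), no larger a share than that of all probes, and KIF20A read -0.56 and -0.49 without passing. Leaving out replicate 2 of air at 2 h 25 min brought the 14 calls to 9, and leaving out replicate 2 of pollen at 2 h 25 min or at 24 h brought the 7 to 4 each. When the 75th percentile was taken over each array's own probes, 0 passed in either, and when only the groups compared were fitted, 8 passed in air and 1 in pollen. The share of all probes that passed is not given for these settings or with an array left out.

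The wider lists are read against the shares of all probes at this interval, 12.5% higher and 14.9% lower in air and 11.2% and 11.8% in pollen. In their counts, rose and fell stand for genes that passed. Of the 30 genes of DNA replication, 14 fell and 3 rose in air and 13 fell and 0 rose in pollen, with the helicase subunit MCM6 at -0.83 and -0.94. Of the 40 other genes of mitosis, 11 and 10 fell and 0 and 1 rose, and the condensin subunit NCAPG fell by 0.78 and 0.82. Among 15 regulators of CDK activity 4 rose and 1 fell in air, and 3 rose and 1 fell in pollen, the inhibitor CDKN1A rising by 1.40 and 1.27. The transcription regulators split, 3 up and 4 down in air and 3 and 3 in pollen, with the repressor E2F8 at -0.79 in both. Of the 15 genes of the anaphase-promoting complex 4 rose and 4 fell in air, and 6 rose and 2 fell in pollen. Markers of cell types also passed, with 5 of 7 epithelial markers falling and 1 rising in each exposure, 4 of 5 tested mesenchymal markers falling in air and 3 of 5 in pollen, and their part in the result was not tested.

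**Figure D5:**
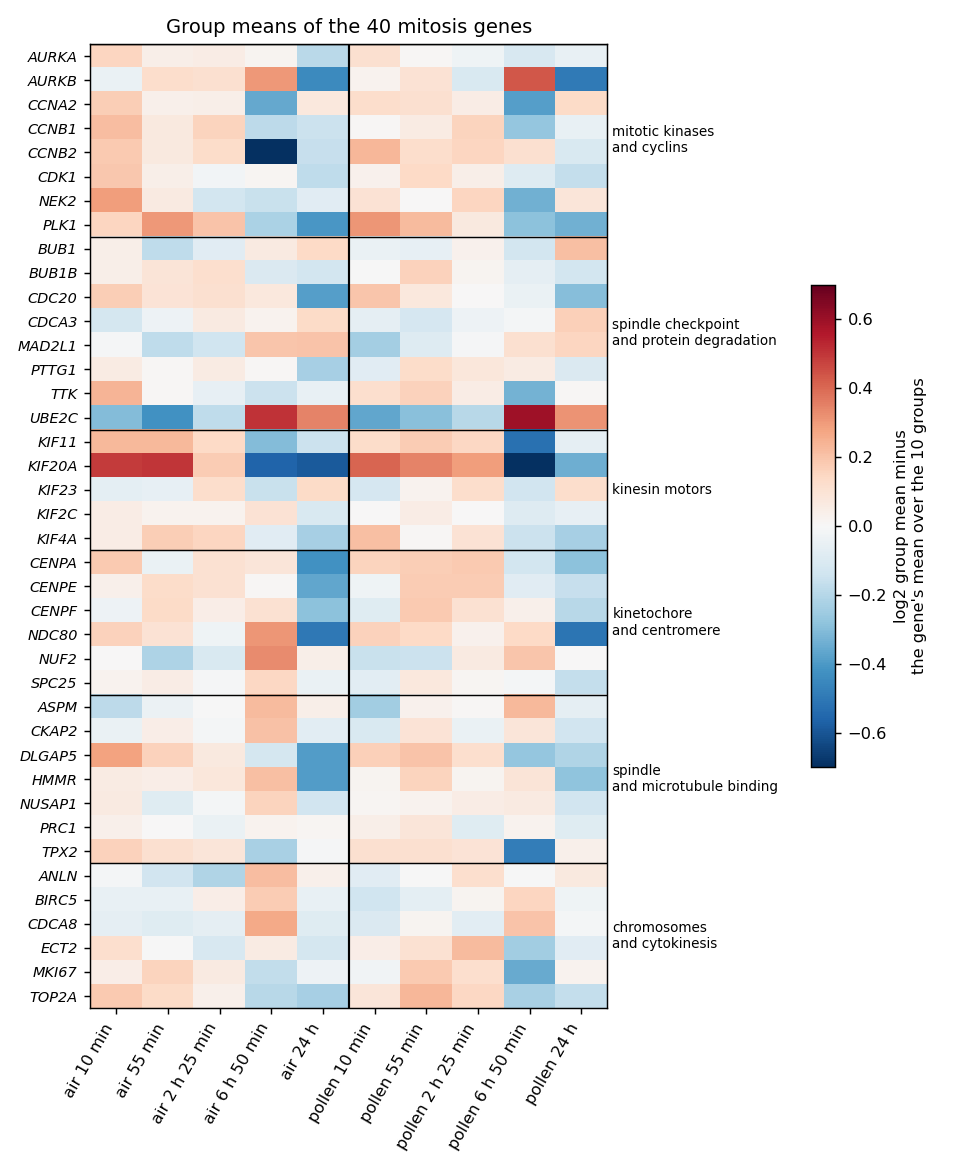
Group means of the 40 mitosis genes, each as its log2 difference from the gene's mean over the 10 groups, with genes in rows by role and the 5 times of air and then of pollen in columns. Rows look alike left and right of the middle line, apart from CCNB2 in air at 6 h 50 min, and the columns of 6 h 50 min and 24 h carry most of the change.

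The steps into and out of 6 h 50 min were all between slides. From 2 h 25 min to 6 h 50 min 11 members passed in air (32.4% of all probes), 4 up and 7 down (9.9% and 22.6%), and 15 passed in pollen (31%), 2 up and 13 down (11.1% and 19.9%). Of these, CCNA2, CCNB1, KIF11, KIF20A, KIF23 and TPX2 fell in both and UBE2C rose in both, 7 genes, which is 63.6% of the calls in air and 46.7% of those in pollen. Over all probes 64.7% of the calls in air and 67.7% of those in pollen were shared. From 6 h 50 min to 24 h 12 passed in air (40.5%), 3 up and 9 down (24.7% and 15.9%), and 12 in pollen (36.2%), 8 up and 4 down (21.8% and 14.5%), with CCNA2 and KIF23 up and AURKB, HMMR and NDC80 down in both. The third that rose in air was CCNB2, which read -0.22 with the dim windows left out. The 5 genes shared at this step were 41.7% of the calls in each exposure. Over all probes 68.6% of the calls in air and 76.8% of those in pollen were shared. With the 75th percentile over each array's own probes the calls were 1 in air and 3 in pollen for the first step and 4 and 2 for the second. Without air replicate 1 of 6 h 50 min the 11 calls were 6, without pollen replicate 1 of 2 h 25 min the 15 were 9, without air replicate 3 of 6 h 50 min the 12 in air were 19, and without pollen replicate 2 of 24 h the 12 in pollen were 6. The median of all probes moved at these steps too. It was -0.15 in air and -0.11 in pollen into 6 h 50 min and 0.14 and 0.11 out of it, and after quantile normalization 0, 0, 0.05 and 0.04. Under quantile normalization the members' medians for the first step were -0.04 and -0.15, and the calls were 2 up and 7 down in air and 2 and 14 in pollen. For the second step they were 2 up and 13 down in air and 8 and 6 in pollen. Counts of these other settings are given without the share of all probes that passed in them.

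CCNA2, the S and G2 phase cyclin whose probe is printed 10 times, dipped at 6 h 50 min. It fell by 0.40 in air (limma adjusted p = 0.00328) and by 0.44 in pollen (adjusted p = 0.00157) and then rose by 0.42 and 0.52. KIF11 fell by 0.44 and 0.67 into that time, and TPX2 by 0.31 and 0.59. KIF20A fell by 0.74 and 1.02. UBE2C rose by 0.68 and 0.79, joined in air by NUF2 (0.44), CDCA8 of the chromosomal passenger complex (0.34) and NDC80 (0.33), and in pollen by AURKB (0.54). CCNB2 passed in air, falling by 0.86 (adjusted p = 0.0036), and differed by -0.07, without passing, with the dim windows left out.

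From 6 h 50 min to 24 h the largest falls were those of NDC80, by 0.81 in air and 0.65 in pollen, AURKB, by 0.75 and 0.93, and HMMR, a protein of spindle assembly, by 0.60 and 0.36. KIF23, a motor of the central spindle, rose by 0.29 and 0.26. In pollen TPX2, KIF11 and NEK2 rose by 0.52, 0.46 and 0.42 as well. Over the 10 group means the widest ranges were those of KIF20A (1.23), UBE2C (1.01), CCNB2 (0.96) and AURKB (0.93), but CCNB2 read 3.89 in air at 6 h 50 min, where the dim field lay, and from 4.46 to 4.85 in the other groups. The narrowest ranges were those of PRC1 (0.18) and KIF2C (0.20), a kinesin that shortens microtubules.

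Probes of 1 gene did not always read the same change at this slide. The brighter probe of CKAP2, a protein of spindle microtubules, passed at neither step, while its dimmer probe fell by 0.83 in air and 0.88 in pollen into 6 h 50 min and rose by 0.89 and 0.97 out of it. The brighter probe of CENPF passed in neither exposure into that time and its dimmer probe fell by 0.68 and 0.69. For CCNB1 the brighter probe fell by 0.34 and 0.43 into 6 h 50 min, while the dimmer read 0.06 and 0.05 and did not pass. Its probes also parted at 24 h: against 2 h 25 min the brighter read -0.31 in air and -0.21 in pollen and the dimmer -0.68 and -0.52, the dimmer passing in both.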

How the data were processed

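Total RNA was labelled with Cy3 and hybridized to 1-colour Agilent arrays; per the labels, signals were extracted with Agilent Feature Extraction 11.0.1.1. The authors deposited each array's scanner intensity per spot, background-subtracted as processed signal, with mean and background intensity beside it, and a table of log2 values, which was an alternative here; of its 29 columns that could be compared, 6, all of 24 h, matched another array of their own group best. Of the 58201 probes, 33873 were on the other design (42405 probes) with the same sequence; the remaining probes were missing on that array.

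Spots flagged as outliers were dropped, spots of a probe averaged, and log2 processed signal was set against the array's 75th percentile over shared probes. A probe was kept if some group had it well above background on each of its 3 arrays. Group means over 30 arrays were fitted in R 4.3.3 with limma 3.58.1 (lmFit, eBayes) and adjusted by Benjamini-Hochberg; calls needed an adjusted p under 0.05 and 1.1-fold, differences of effects the former alone. The scripts were tested on simulated data.

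Named in full were called members, or with over 8 the 4 largest changes each way, or with none the 3 smallest p, and always CDK1, CCNB1, PLK1, TOP2A and MKI67; others were named after their values were seen. The members and lists were chosen with earlier results of these data known. Replicate numbers were checked as pairs: deviations of same-numbered air and pollen arrays correlated by at least 0.30 at 10 min, 0.40 at 2 h 25 min and 0.22 at 24 h, so they pair there, but by -0.12 and 0.05 at the least at 55 min and 6 h 50 min. Slide was tested as a batch. The number of arrays limits the precision.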

Additional observations from a re-analysis of the deposited data

How the results depend on the processing

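The count of 0 members for pollen against air held under all alternatives at 10 min, 55 min, 2 h 25 min and 24 h. At 6 h 50 min 1 member, CCNB2, passed with normexp and quantile normalization and with array weights. In the values the authors deposited 2 members passed, CCNB2 as higher in pollen and 1 other as lower. Counts in this section are given without the share of all probes that passed in the same setting. A count that moved between settings is therefore no result about mitosis genes in particular. The direction of CCNB2 turned, to -0.10, with normexp, quantile normalization and dim windows left out together. The replicate number as a fixed block changed no count of pollen against air, and as a random block it gave 1 member at 6 h 50 min (CCNB2) and changed no other count by over 1.5 times. Leaving out 1 array gave 0 to 1 at 6 h 50 min, 0 to 1 for the average and 0 to 1 for the change of the effect at either late step, each 1 without air replicate 3 of 6 h 50 min. Medians without 1 array ran from -0.04 to 0.11 at 55 min and from -0.12 to -0.08 at 6 h 50 min.

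With the percentile over each array's own probes, the member median was -0.36 at 55 min and -0.10 for the average of pollen against air. It was -0.37 and 0.44 for the early steps in pollen, where ASPM (-0.15), CENPF (-0.14) and PRC1 (0.31) turned direction. The calls into 6 h 50 min were 1 in air and 3 in pollen (medians 0.10 and -0.01), those out of it 4 and 2 (-0.23 and -0.11), and those of 24 h against 2 h 25 min 0 and 0 (air median -0.04). In this setting replicate 1 of pollen at 55 min, on the other design, had a 75th percentile of 861.5. Replicates 2 and 3 of that group had 365.4 and 279.6. All 30 arrays shared 1 estimate of the spread. The cause was not tested.

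In the deposited table the medians were -0.07 at 55 min and -0.15 at 6 h 50 min for pollen against air, -0.05, 0.02 and -0.14 for the last 3 steps in air, with 19 calls in the last, -0.13 and -0.04 for the late steps in pollen, and -0.21 for 24 h against 2 h 25 min in air. With quantile normalization they were -0.12 at 6 h 50 min, -0.05 for 2 h 25 min against 55 min in air, -0.15 and -0.03 for the late steps in pollen and -0.21 for 24 h against 2 h 25 min in air. With normexp added they were -0.12, -0.06, -0.16, -0.03 and -0.21, with -0.15 for the last step in air. Leaving the dim windows out as well gave -0.12, -0.06, -0.16, -0.03 and -0.21, with 7 calls into 6 h 50 min in air and 11 for 24 h against 2 h 25 min in pollen.

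With the dim windows left out, CCNB2 at 24 h against 6 h 50 min in air was -0.22, or -0.38 with normexp and quantile normalization, and its change of effect was 0 at that step, or -0.11 and 0.15 at the steps into and out of 6 h 50 min. Array weights gave 1 call for the first step in air, 17 and 21 for the late steps in air (median 0.04 for the former), a pollen median of -0.12 at 6 h 50 min and 1 call for the last change of effect. Fits of only the groups compared gave 2, 6 and 8 calls in air and 8, 7 and 1 in pollen for the late steps and 24 h against 2 h 25 min. Slide as a random block gave 7 and 7 in air and 9 and 7 in pollen for the late steps, with medians of -0.15 in air and -0.04 in pollen for the last. As a fixed block it gave medians of 0.05 and 0.06 for 2 h 25 min against 55 min, and within a slide 0.05 and 0.05, with 4 and 2 calls for 24 h against 2 h 25 min. The percentile over probes above background on all arrays gave medians of -0.07, -0.13 and -0.04, the mean over a gene's probes -0.12 and -0.02, and no filter 4 calls for 24 h against 2 h 25 min in pollen.

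Leaving out 1 array gave 6 to 13 calls into 6 h 50 min in air (6 without its replicate 1) and 9 to 14 in pollen (9 without pollen replicate 1 of 2 h 25 min). It gave 9 to 19 out of it in air (19 without air replicate 3 of 6 h 50 min) and 6 to 9 in pollen (6 without pollen replicate 2 of 24 h). For 24 h against 2 h 25 min it gave 9 to 14 in air and 4 to 7 in pollen. Medians ran from -0.03 to 0.05 and -0.13 to -0.06 into 6 h 50 min, from -0.19 to -0.14 and -0.08 to -0.03 out of it, and from -0.19 to -0.12 for 24 h against 2 h 25 min in pollen. With 3 arrays a group, changes under about the width of the intervals were not detectable.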
